A study of Homo sapiens with 2 samples.

Results

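Keratins, desmosomal proteins and precursors of the cornified envelope were examined in the head and neck cancer line OECM1, which is an established cell line, with and without forced expression of the microRNA let-7i. The genes were chosen by name, with earlier results of these data known. There were 36 symbols: 17 keratins, 9 desmosome genes, and 10 envelope and differentiation genes. Of these, 33 had at least 1 probe set named for them alone, out of 19775 such genes on the array. These 33 genes were covered by 54 probe sets. KRT6A, KRT6B and KRT17 had no such probe set and are not reported here. OECM1-let7i was stably transfected with pmCherry-let7i, a vector that carries let-7i and the fluorescent marker mCherry. OECM1-mCherry carried the pmR-mCherry vector without the microRNA. Both lines were grown in RPMI with fetal bovine serum, and the labels give neither the promoter of the vectors nor whether each line was 1 clone or a pool. Each group was 1 array, so no spread between cultures, SD or p-value exists for any value given here, and differences are described by size alone.

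Keratins are intermediate filament proteins that assemble from 1 type I and 1 type II chain, and epithelia are recognised by the pairs they make: KRT5 with KRT14 or KRT15 in the basal layer of stratified epithelium, KRT8 with KRT18 or KRT19 in simple epithelium, KRT1 with KRT10 in the upper epidermis and KRT4 with KRT13 in the upper layers of oral mucosa. Desmosomes join these filaments from cell to cell through desmosomal cadherins (desmogleins and desmocollins), which bind plakoglobin and plakophilins, which in turn bind desmoplakin. In the outermost layers transglutaminase cross-links involucrin, small proline-rich proteins and the plakins periplakin and envoplakin into the cornified envelope. Squamous carcinomas keep parts of this programme, and many also make simple keratins. let-7i acts by pairing its seed with sites in messenger RNAs, and its mature sequence is printed to show that seed, bases 2 to 8, in capitals (RefSeq, GRCh38.p14, chr12:62603691-62603712, plus strand).
let-7i-5p: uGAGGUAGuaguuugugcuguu
The array does not measure this mature microRNA, so the labels could not be checked by it.

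The deposited values are MAS5 signals on a linear scale. The median signal of each array, 88.0 for OECM1-mCherry and 79.5 for OECM1-let7i, was used as its floor, and a signal under the floor was treated as not measured. The brightest probe set stood for a gene, and log2 ratios of let-7i to empty vector were shifted so that the median of the 11140 genes above both floors was 0. The SD of 1 probe set on the log2 scale was 0.25, from 5807 genes with a second probe set above both floors. It was 0.34 in the dimmest 1452 of these genes and 0.15 in the brightest 1452, and it covers probe noise, not variation between cultures. Among the epithelial markers, EPCAM had signals of 10912 and 6690 (empty vector first, let-7i second, here and in each such pair), CDH1 of 6785 and 5090, and CDH3 of 6025 and 4794. EPCAM was 1.64-fold lower with let-7i, CDH1 1.34-fold lower and CDH3 1.26-fold lower. The basal pair KRT5 and KRT14 was under the floor on both arrays, and TP63 is not analysed here, since no probe set carried its symbol. Of 11 fibroblast markers 5 were above the floor, with a median log2 ratio of 0.26. DCN (163 and 322, 1.97-fold), FAP (230 and 392, 1.70-fold) and COL1A1 (346 and 415) were higher with let-7i, and FBLN1 (3695 and 2321) and ACTA2 (213 and 197) were lower. The signal summed over the 11 was 4837 and 3855, and FBLN1 made up most of it on both arrays. Over the named genes of the other marker lists, 1 of 10 leukocyte markers (CD3E, 173 and 90.4; summed signal 403 and 259), 1 of 6 endothelial (PECAM1, 319 and 372; summed 430.1 and 478) and 1 of 6 melanocyte markers (MITF, 1762 and 1743; summed 1967 and 1955) were above the floor, and no marker was listed at exactly 0. Both arrays are of the OECM1 line, and samples of these other cell types were not part of the design. Why single markers of theirs were above the floor was not tested. Each array pooled the RNA of many cells, so fewer cells making a transcript and less of it per cell cannot be told apart.

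Of the 33 genes, 21 were above the floor on both arrays, KRT1 on the empty vector array alone, and 11 on neither. Among the 22 above a floor, 16 were lower and 6 higher with let-7i. LY6D, KRT80, KRT15 and PPL, 4 genes, were at least 2-fold lower, and 0 were at least 2-fold higher. Of the 12284 genes that reached a floor on 1 or both arrays, 49.8% were lower, 48.7% higher, 1.38% at least 2-fold lower and 1.06% at least 2-fold higher. The share of the 22 genes was 72.7% for lower, 27.3% for higher and 18.2% for at least 2-fold lower. The median of their log2 ratios was -0.33 (1.25-fold lower), beside -0.0093 for all 12284 genes. KRT1 was counted only through the array where it was brighter. Of the 21 genes above both floors, 15 were lower and 6 higher, against 50% each way in the 11140 genes, 4 were at least 2-fold lower, against 1.13%, and 0 at least 2-fold higher, against 0.862%. Of these 21 genes, 9 had a ratio smaller than 1 SD of 1 probe set, with the 6 higher genes among them. Each of the 4 genes past 2-fold rests on 1 probe set, so none has a second probe set to set beside it. Without probe sets that may match several transcripts, 13 of the genes kept a ratio, 8 lower and 5 higher. Over all genes 49.8% were lower in that setting. JUP and CNFN were among the genes that lost their ratio there.

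**Figure D1:**
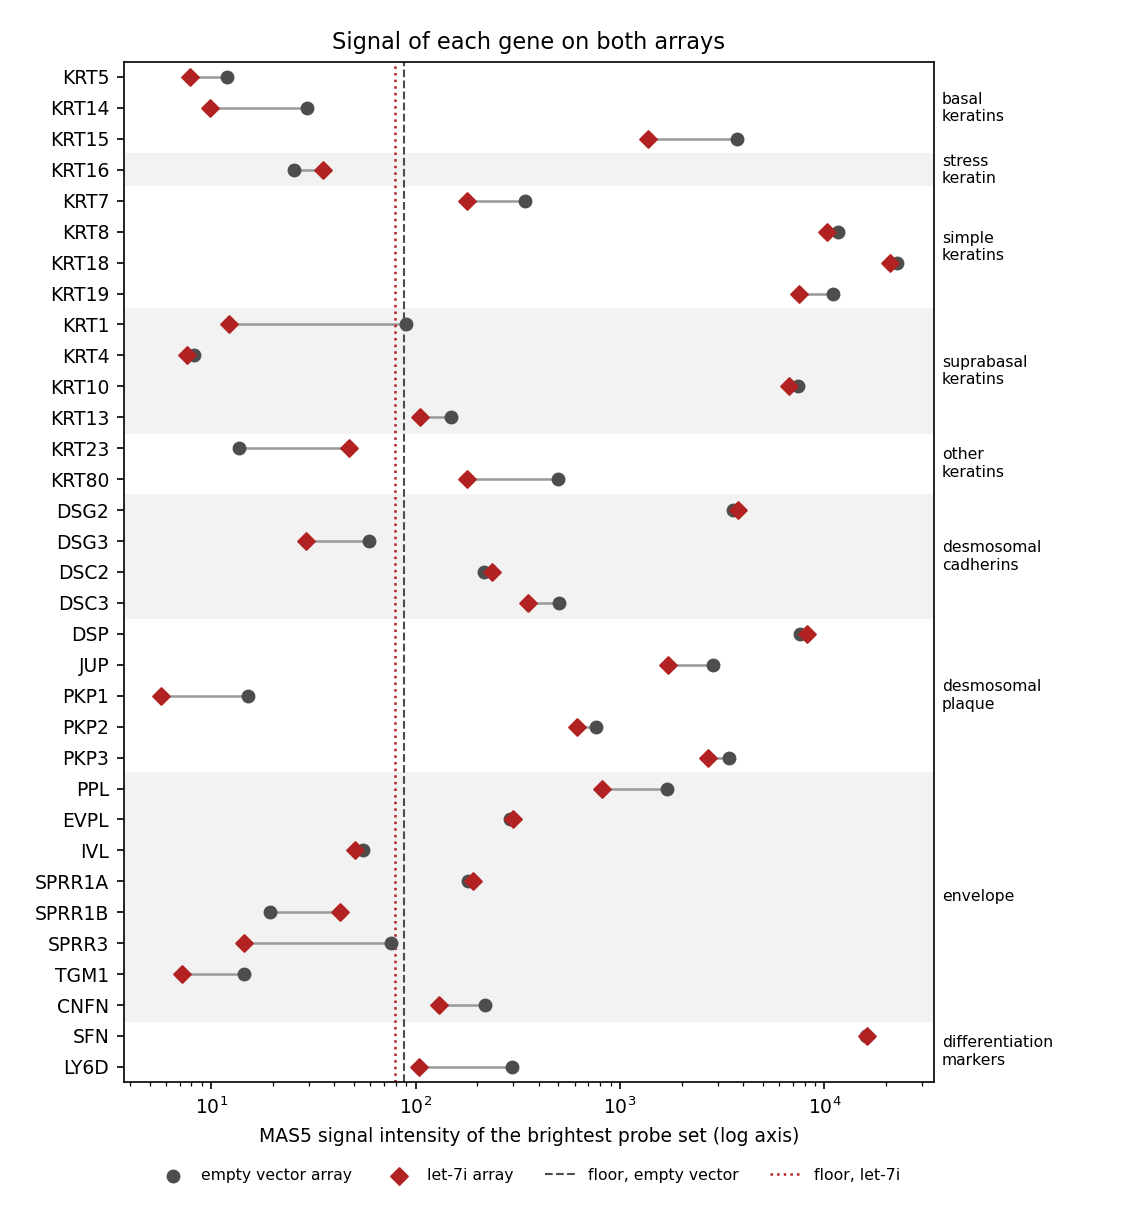
MAS5 signal of the brightest probe set (log axis) for the 33 genes, grouped by class, on the empty vector array (grey circles) and the let-7i array (red diamonds), with the floor of each array as a vertical line. KRT15 (3735 and 1375), KRT80 (496 and 178), PPL (1692 and 817) and LY6D (296 and 104) are the widest pairs that lie above both floors, and KRT5 and KRT14 lie left of them.

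Of the 17 keratins 9 reached a floor, 5 did not and 3 had no named probe set. The 9 were lower with let-7i, beside 49.8% of the 12284 genes, with a median log2 ratio of -0.52. For KRT1 the ratio is only a bound, and KRT8, KRT10 and KRT18 were lower by less than the overall probe set SD of 0.25. Split by class, the basal class was reduced to 1 measured gene. KRT15, a type I keratin of basal cells, read 3735 in OECM1-mCherry and 1375 in OECM1-let7i. It was thus 2.72-fold lower, a log2 ratio of -1.45. Only 49 of the 12284 genes had a lower ratio. Its usual type II partner KRT5 had signals of 11.9 and 7.88, and the related basal keratin KRT14 of 29.3 and 9.85. Both lie under the floors, so no ratio is given, and also under the brightest of 27 control probe sets for Bacillus genes, which these cells lack (65.1 and 47.7). KRT15 was thus the one basal keratin that could be compared, and the class value is its own. KRT16, a keratin of wounded and rapidly dividing epithelium, was also under the floor, with signals of 25.5 and 35.2.

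Simple keratins were measured in full, and the 4 genes were lower by unequal amounts, with a median log2 ratio of -0.37. KRT8, the type II chain of simple epithelium, read 11697 and 10297 (log2 ratio -0.19). KRT18, its main type I partner, read 22635 and 20970 (log2 ratio -0.11). Both differences are smaller than the overall probe set SD of 0.25, and that of KRT8 exceeds the 0.15 of the brightest genes. KRT19, the type I chain that can replace KRT18, was 1.46-fold lower, with signals of 10984 and 7522. KRT7, a type II keratin of glandular and ductal epithelium, read 343 and 178 in its brightest probe set, 1.93-fold lower and just short of 2-fold. Its other probe set above both floors read 261 and 210, which gave a log2 ratio of -0.31 against -0.95. The probe sets of KRT7 thus agree on the direction and not on the size. The probe sets of KRT8 and KRT18 carry IDs that mark possible matches to several transcripts, and no other probe set was named for either gene.

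In the suprabasal class KRT10 and KRT13 were above both floors, with a median log2 ratio of -0.34. With KRT1 added the median of the 3 genes was -0.17, which is the bound of KRT1 itself and is set by the floor. KRT10, a type I keratin of differentiating epidermis, differed little: its brightest probe set had signals of 7460 and 6724, and its 3 probe sets gave log2 ratios between -0.15 and -0.09. KRT13, the type I keratin of oral mucosa, read 150 and 105 (log2 ratio -0.52), close to the floors. KRT1, the type II partner of KRT10, had signals of 89.3 and 12.3. The let-7i value lies under the floor, so KRT1 was at least 1.13-fold lower. When the floors were put at the 25th percentile, the bound was 4.66-fold. KRT4, the partner of KRT13, was under both floors at 8.26 and 7.64. The measured members of this class were the type I chains KRT10 and KRT13, whose type II partners were under the floor on 1 array (KRT1) or both (KRT4).

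Outside these classes, KRT80, a type II keratin of epithelial cells, had signals of 496 and 178. It was 2.80-fold lower with let-7i, and 39 genes had a lower ratio. KRT23, a type I keratin, was under both floors at 13.6 and 47.2, levels at which no ratio is given. It was brighter with let-7i, at least 2.14-fold higher when the floors were put at the 25th percentile.

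**Figure D2:**
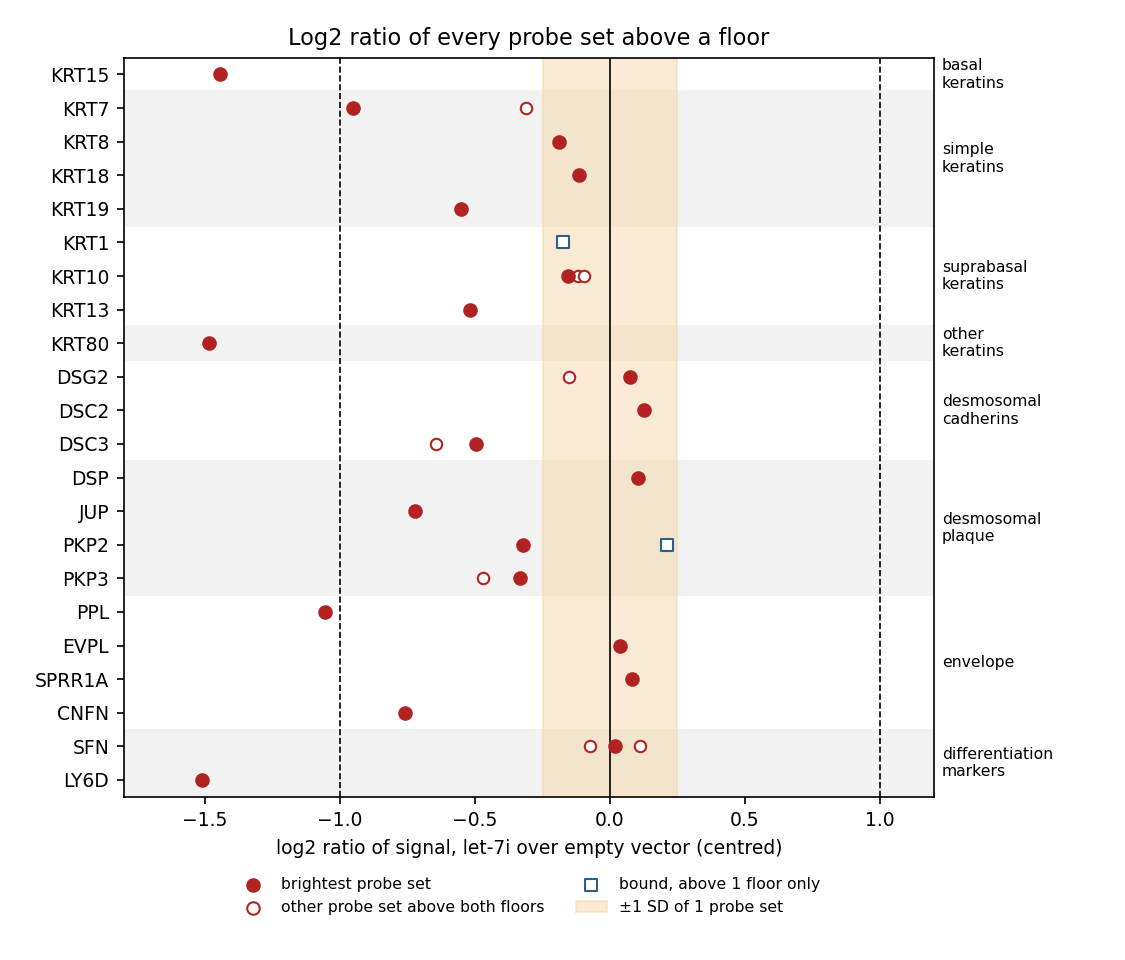
Centred log2 ratio (let-7i over empty vector) of each probe set of the 22 genes, with filled circles for the brightest probe set, open circles for other probe sets above both floors and squares for bounds. Dashed lines mark 2-fold and the shaded band is 1 SD of 1 probe set (0.25). The points left of the 2-fold line belong to KRT15, KRT80, PPL and LY6D, and no point reaches the 2-fold line on the right.

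The desmosome genes were less uniform. Of 9 genes 7 were above both floors, 4 lower and 3 higher with let-7i, with none at 2-fold and a median log2 ratio of -0.32. Among the cadherins, DSG2, the desmoglein found in all desmosome-bearing tissues, had signals of 3589 and 3788. Its log2 ratio was 0.07 in that probe set and -0.15 in the other, so its direction depends on the probe set. DSC2, the widely expressed desmocollin, read 215 and 235 (log2 ratio 0.13). DSC3, the desmocollin of basal squamous epithelium, was lower in both measured probe sets, with signals of 501 and 357 in one and 492 and 316 in the other, log2 ratios of -0.49 and -0.64. DSC3 was therefore the measured cadherin that was lower beyond the SD of 1 probe set. DSG3, the desmoglein of squamous epithelium, read 58.9 and 29.1, under both floors. It was 2.01-fold lower when the floors were put at the 25th percentile. Both DSG3 signals are also under the brightest Bacillus control (65.1 and 47.7).

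In the plaque, JUP was lower with let-7i and DSP was close to level. JUP, plakoglobin, which binds the cadherin tails, read 2840 and 1725, 1.65-fold lower. DSP, desmoplakin, which anchors the keratin filaments, read 7628 and 8220 (log2 ratio 0.10). The difference for JUP is 2.92 times the SD of 1 probe set and that for DSP is smaller than it. PKP3, the plakophilin of most epithelial desmosomes, was 1.26-fold lower (3401 and 2707), and its other probe set gave a log2 ratio of -0.47. PKP2, a plakophilin of simple epithelia and heart, was 1.25-fold lower (764 and 613). The other probe set of PKP2 above a floor pointed the other way, from 68.6 under the floor to 102, at least 1.16-fold higher. Averaging the probe sets of PKP2 gave a log2 ratio of -0.03. PKP1, the plakophilin of the upper layers, was under both floors (15.1 and 5.65).

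For the envelope genes, 4 of 8 were above both floors, and the plakin pair had unlike ratios. PPL, periplakin, read 1692 and 817, 2.08-fold lower. Its partner EVPL, envoplakin, read 291 and 299 (log2 ratio 0.04). CNFN, cornifelin, was 1.69-fold lower, with signals of 219 and 130 in a probe set that may match several transcripts. With floors at the 65th percentile CNFN had no ratio. SPRR1A, a small proline-rich precursor, read 180 and 191 (log2 ratio 0.08). The other 4 gave no ratio: IVL (55.5 and 50.4), SPRR1B (19.4 and 42.9), SPRR3 (75.6 and 14.5) and TGM1 (14.5 and 7.24), encoding involucrin, further small proline-rich proteins and the cross-linking transglutaminase, were under both floors. When the floors were put at the 25th percentile, SPRR3 was at least 3.94-fold lower and SPRR1B at least 1.95-fold higher. Both SPRR1B signals and the let-7i signal of SPRR3 are under the brightest Bacillus control (65.1 and 47.7).

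The keratinocyte differentiation markers also split. LY6D, a surface protein of squamous keratinocytes, read 296 and 104, 2.85-fold lower, and 35 of the 12284 genes had a lower ratio. Its let-7i signal is close to the floor. When the floors were put at the 65th percentile that signal fell under the floor. The log2 ratio of LY6D was then only a bound, -0.48, which is short of 2-fold. SFN, stratifin, had signals of 15939 and 16192. Its 3 probe sets gave log2 ratios between -0.07 and 0.11, within the SD of 1 probe set and without a common direction.

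**Figure D3:**
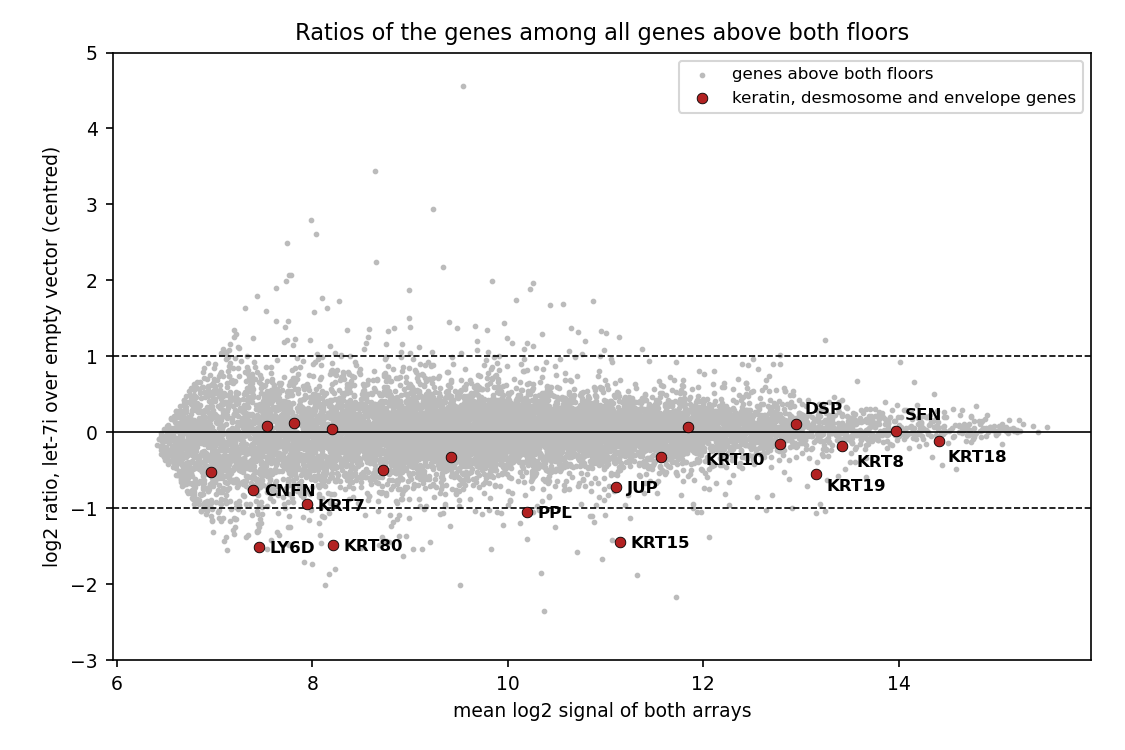
Centred log2 ratio against the mean log2 signal of both arrays for the 11140 genes above both floors (grey) and the 21 keratin, desmosome and envelope genes among them (red, some named), with dashed lines at 2-fold. KRT15 and PPL lie below the 2-fold line at higher mean signals than KRT80 and LY6D, and KRT18, KRT8 and KRT10 lie near 0.

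Other genes of the same structures, listed by their known roles, were mostly under the floors. Of 6 other desmosome genes 2 were above the floor, both lower by little: PERP, a tetraspan protein of desmosomes, had a log2 ratio of -0.10 and PKP4 of -0.02. Of 9 hemidesmosome genes, which attach basal cells to the matrix, 6 were named and measured, 3 lower and 3 higher with none past 2-fold. ITGA6, the integrin chain that pairs with ITGB4, was 1.61-fold higher (1780 and 2877), ITGB4 had a log2 ratio of -0.20 and CD151, their tetraspanin partner, of 0.20. Of 22 other keratins 18 were named and 3 reached the floor, on the let-7i array alone: KRT3 with a bound of 1.02-fold higher, and KRT31 and KRT85 with bounds that leave the direction undetermined. Of 33 other cornification genes 29 were named and 9 were above a floor, 5 lower, 3 higher and 1 undetermined. PI3, the protease inhibitor elafin, had signals of 79.0 and 308 and was at least 3.49-fold higher. With floors at the 65th percentile this bound was a log2 ratio of 0.42. DMKN, dermokine, was 1.64-fold lower (1242 and 762) and SPRR4, a small proline-rich protein, 1.58-fold higher (180 and 286).

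Promoter windows (250 bases before to 50 after a start, RefSeq, GRCh38.p14) were found for 17 of the genes. Those of the 4 desmosomal cadherins were not used here, which left 13 genes with 14 windows. KRT15, KRT80, PPL and LY6D are not among them, and 6 of the 13 genes (IVL, SPRR3, SPRR1B, PKP1, KRT5 and KRT4) had no ratio. They were searched on both strands for CACCTG, the E-box form bound by ZEB and SNAI repressors of epithelial genes, and TGANTCA, the AP-1 site. In 0 of the 14 windows did a match of one overlap a match of the other. The E-box form was in 7 of the 14 windows, against 20.6% of all 35116 windows, and the AP-1 letters in 5, against 7.71%. Of these, 3 windows with the E-box form and 3 with the AP-1 letters belong to genes with no ratio, so the shares describe the windows and not genes that differed between the arrays. The windows with AP-1 letters were those of SFN, IVL, SPRR1A, SPRR3 and SPRR1B. JUP and DSP are printed because these plaque partners had unlike ratios. SPRR1A is printed because it was the small proline-rich gene above a floor among the 33, through a probe set that may match several transcripts. Capitals mark matches to either motif.
JUP, first window, chr17:41786662-41786961, minus strand: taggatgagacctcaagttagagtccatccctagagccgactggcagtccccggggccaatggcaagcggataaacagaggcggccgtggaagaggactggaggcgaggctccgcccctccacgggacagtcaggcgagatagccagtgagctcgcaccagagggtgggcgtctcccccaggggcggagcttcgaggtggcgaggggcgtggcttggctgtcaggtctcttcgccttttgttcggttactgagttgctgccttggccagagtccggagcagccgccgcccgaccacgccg
JUP, second window, chr17:41785927-41786226, minus strand: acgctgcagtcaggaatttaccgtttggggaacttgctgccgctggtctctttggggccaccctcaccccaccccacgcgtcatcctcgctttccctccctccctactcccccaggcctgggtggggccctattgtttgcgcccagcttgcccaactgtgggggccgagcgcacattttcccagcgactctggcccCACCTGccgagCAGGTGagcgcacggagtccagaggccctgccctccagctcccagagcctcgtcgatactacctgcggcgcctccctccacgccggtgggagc
DSP, chr6:7541421-7541720, plus strand: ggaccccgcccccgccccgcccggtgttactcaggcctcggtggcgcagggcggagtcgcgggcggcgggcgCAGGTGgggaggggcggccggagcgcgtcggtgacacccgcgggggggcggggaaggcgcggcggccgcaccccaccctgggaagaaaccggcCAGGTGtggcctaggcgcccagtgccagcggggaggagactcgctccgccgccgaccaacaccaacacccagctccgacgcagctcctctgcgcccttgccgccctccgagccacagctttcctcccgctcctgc
SPRR1A, chr1:152983831-152984130, plus strand: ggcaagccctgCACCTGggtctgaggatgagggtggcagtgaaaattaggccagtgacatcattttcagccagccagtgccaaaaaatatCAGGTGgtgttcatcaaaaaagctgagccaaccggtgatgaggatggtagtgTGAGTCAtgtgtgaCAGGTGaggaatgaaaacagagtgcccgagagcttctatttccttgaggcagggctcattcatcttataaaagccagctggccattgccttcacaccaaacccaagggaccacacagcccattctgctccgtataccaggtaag
The E-box letters occur 2 times in the DSP window, 2 times in the second JUP window, not in the first, and 3 times in the SPRR1A window. A match is a description of the sequence and shows no binding.

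The lower genes kept their direction in the settings tried, but several of the settings could hardly have changed it. All settings reuse the same 2 arrays, so an unchanged sign says nothing about variation between cultures. KRT1, KRT8, KRT13, KRT15, KRT18, KRT80, JUP, PPL, CNFN and LY6D have 1 probe set each, so the settings on probe sets could not alter their direction. Leaving out the centring changed ratios by only 0.0036. Not every gene had a ratio in all 7 settings, and CNFN and KRT13 had one in 5. Each of the 16 lower genes kept its sign in every one of 7 settings that gave it a ratio. PKP2 did so at only -0.03 with the mean of probe sets. Of the 6 higher genes 4 kept their sign, while DSG2 and SFN, whose ratios lie near 0, changed sign in at least 1. KRT15 stayed between -1.47 and -1.42 and PPL between -1.06 and -1.03. KRT7 was the gene whose size changed most among those above both floors other than LY6D, with a log2 ratio of -0.30 without probe sets that may match several transcripts.

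**Figure D4:**
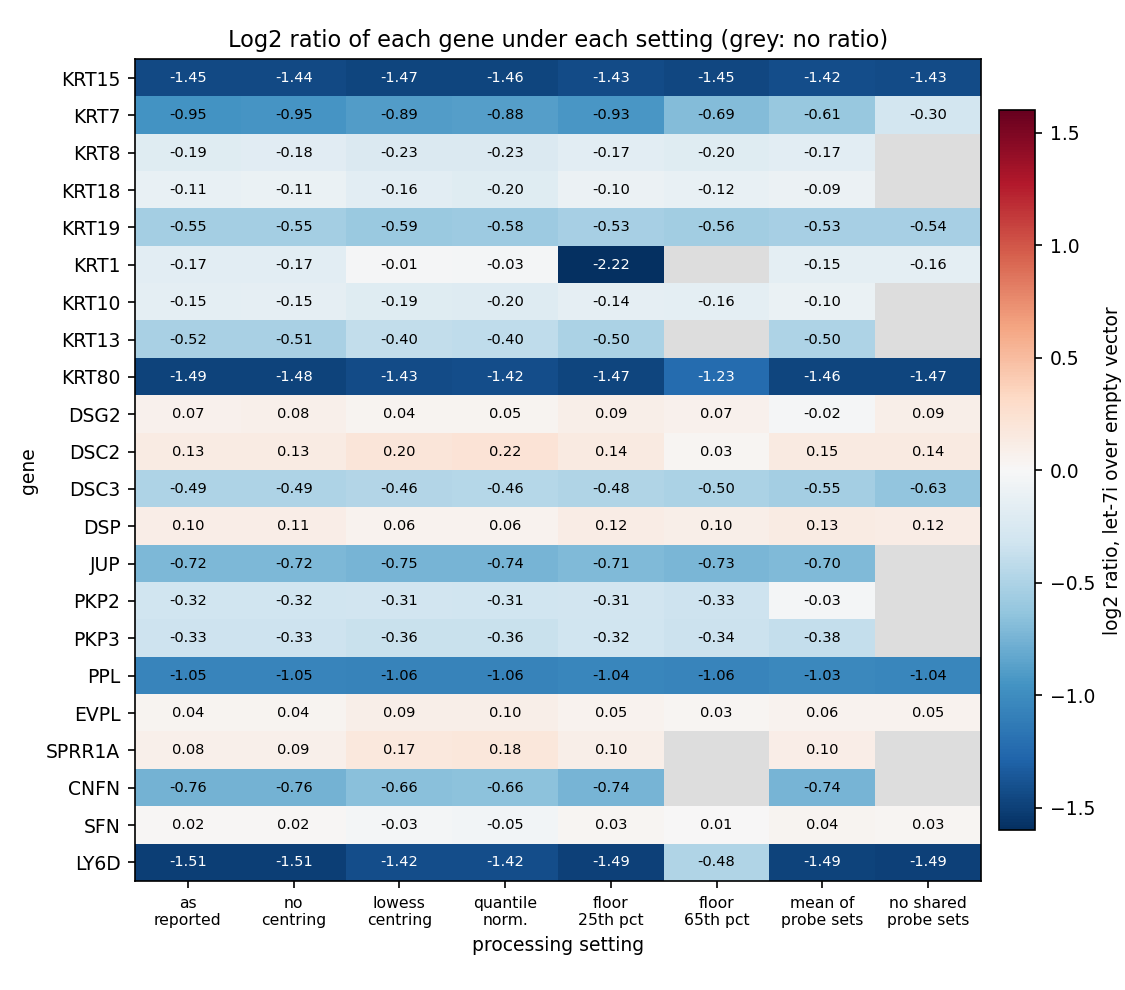
Log2 ratio (let-7i over empty vector) of the 22 genes as reported and under 7 other settings, colour from blue (lower) to red (higher), grey where no ratio could be given. KRT15, KRT80 and PPL stay past 2-fold in each column, LY6D loses it when floors lie at the 65th percentile, and KRT1 ranges from -2.22 to -0.01.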

How the data were processed

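Total RNA of 2 OECM1 lines, 1 array each, was labelled as biotinylated cRNA, per the labels' protocols. The authors deposited linear signal intensities, 1 per probe set, and MAS5 is the tool named in the submitters' processing notes. Its version, scaling target and detection calls are not used here, since the sources used here do not give them. MAS5 subtracts mismatch signal, so dim values are noisy. Both arrays have a trimmed mean of 500.1 (2% cut at each end), and such scaling hides differences in total RNA. The number of arrays limits the precision.

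Of 54675 probe sets, 41097 had 1 symbol in the platform annotation. Those with several symbols (1801) or unlisted (11777) were left out. The Entrez IDs of all 54 probe sets of the genes described matched the RefSeq symbols. The probe set with the highest mean of both log2 signals stood for its gene. Signals under the floor (50th percentile) were set to it, which makes a ratio a bound, and genes under both floors got none. Centring shifted ratios by 0.0036. The threshold was 2-fold and no test was possible.

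The genes, lists and motifs were chosen with earlier results of these data known. Every one of the 33 genes is described, and up to 3 with the largest absolute ratios from each of 4 further lists (other desmosome genes, hemidesmosome genes, other keratins and other cornification genes). Of the cell type markers, those above a floor are given. The settings tried were floors at the 25th or 65th percentile, thresholds of 1.5-fold and 3-fold, the mean of a gene's probe sets, leaving out _s_at and _x_at probe sets, quantile normalization, and ratios not centred or centred by lowess (3 iterations, fraction 0.3). Counting only genes above both floors was chosen after seeing the data. The scripts, tested on simulated data, used Matplotlib 3.10.9, statsmodels 0.14.6, pandas 2.3.3, NumPy 2.4.6 and Python 3.11.15.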

Additional observations from a re-analysis of the deposited data

How the results depend on the processing

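No paired analysis was possible because each group had 1 array, and leaving out a replicate could not be done. With a floor at the 25th percentile 7 genes were at least 2-fold lower (KRT1, SPRR3 and DSG3 added) and 1 higher (KRT23), among 29 genes, where 6.47% of all genes were at least 2-fold lower and 3.8% higher; the median was then -1.02 for basal keratins (2 genes) and -0.50 for suprabasal keratins. At a threshold of 1.5-fold 7 genes were lower, beside 5.93% of all genes, and 0 higher, beside 4.18%; at 3-fold 0 were lower, beside 0.195%, and 0 higher, beside 0.277%. The median over the genes was -0.27 with the mean of probe sets, and that of suprabasal keratins -0.34 over the genes above both floors. In the other settings tried, the count of 2-fold lower genes was 3 (floor at the 65th percentile, LY6D lost, 18 genes measured, beside 0.731% of all genes) or 4 (beside 1.13% to 1.41%), and the medians moved by less than the SD of 1 probe set divided by the square root of the number of genes. Genes whose signal lies near a floor (LY6D, KRT13, KRT1, CNFN, SPRR1A) are limited by signal over background. With floors at the 65th percentile KRT1, KRT13, CNFN and SPRR1A had no ratio, and those of LY6D and KRT80 were bounds. DSG3, KRT23 and KRT14 gained a ratio only with floors at the 25th percentile, and their signals are under the brightest Bacillus control on both arrays.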
